A study of Mus musculus with 2 samples.

Results

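Mir298, Mir296, Mir335, Mir483 and Mir675 are microRNA genes that lie at imprinted loci other than the large Dlk1-Dio3 cluster. They were chosen by name, with their levels in these data known: Mir298 and Mir296 at the Gnas locus, Mir335 in Mest, Mir483 in Igf2 and Mir675 in H19. They are 5 of the 2202 microRNA genes in the count tables. The levels given here are therefore a description, with no test. Hippocampus was taken from B6CASTF1/J males aged 10 days, offspring of a cross between the C57BL/6J and CAST/EiJ strains. The labels give 1 group, with no treatment named, of 2 biological replicates, each with 3 males, and name the tissue as a layer of hippocampus. They list other animal numbers for each replicate but 1 donor identifier for both, so SDs describe how far these samples lay apart, and part of that spread may be technical.

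An imprinted gene is expressed mainly from the chromosome inherited from 1 parent, and marks set in the germ line tell the parental copies apart. MicroRNAs inside such genes are cut by Drosha and Dicer from a hairpin in the host transcript, so their supply depends on how strongly the host is transcribed and how well its hairpin is processed. Nespas, the noncoding antisense transcript of the Gnas locus, Mest and Igf2 are known as paternally expressed in many tissues, and H19 as maternally expressed. Igf2 encodes a fetal growth factor and H19 a noncoding RNA of fetal tissue. Both decline after birth in most tissues, and in brain Igf2 persists mainly in choroid plexus and meninges. Mest encodes a protein of the alpha/beta hydrolase fold. The counts used here do not separate the parental alleles.

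The mature products of the 5 hairpins, the small RNAs that the assay captures, are shown because each has a seed of its own. The seed, bases 2 to 8 and in capitals here, largely decides which transcripts a microRNA binds. Sequences are from RefSeq (GRCm38.p6), where 5 of 5 genes were matched.
miR-298-5p: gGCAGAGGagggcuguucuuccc
miR-298-3p: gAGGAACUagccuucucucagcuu
miR-296-5p: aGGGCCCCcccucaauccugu
miR-296-3p: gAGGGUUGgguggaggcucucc
miR-335-5p: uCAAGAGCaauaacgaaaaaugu
miR-335-3p: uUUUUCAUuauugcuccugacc
miR-483-5p: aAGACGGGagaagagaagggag
miR-483-3p: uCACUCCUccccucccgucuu
miR-675-5p: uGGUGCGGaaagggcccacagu
miR-675-3p: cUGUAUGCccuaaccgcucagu
The 10 mature sequences carry 10 different seeds. None of these seeds occurs in any other mature mouse microRNA of that table, which holds 1679 mature names and 1398 distinct seeds. The 5 genes are thus not a sequence family, and what joins them is the kind of locus they lie in. No member shares 20 consecutive bases with another microRNA gene, so their counts do not lose such reads to a copy. The longest run shared by any pair of the 5 hairpins was 7 bases.

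Over bases 2 to 7 alone, 4 of the mature sequences have a counterpart elsewhere, and those were scarce. Mir6986, whose 3p product shares these bases with miR-335-3p, had 27 counts in replicate 1 and 34 in replicate 2. Mir5621, which shares them with miR-296-5p, had 4 and 6 counts. Mir7646 and Mir3110, the counterparts of miR-335-5p and miR-483-3p, had 0 counts in both libraries, and Mir3110 shares bases with another gene.

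The hairpins of Mir298 and Mir296 are shown whole, with the mature arms in capitals, because these neighbours differed in how their levels moved between the libraries.
Mir298: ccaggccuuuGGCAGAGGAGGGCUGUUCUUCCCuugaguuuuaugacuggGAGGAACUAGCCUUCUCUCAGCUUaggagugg
Mir296: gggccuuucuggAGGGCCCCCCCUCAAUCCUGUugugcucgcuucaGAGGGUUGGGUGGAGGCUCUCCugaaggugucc
Mir298 lies on the minus strand at chr2:174267504-174267585 and Mir296 at chr2:174267047-174267125 (mm10, as for all positions), with 378 bases between them. In GENCODE M21 neither lies in an annotated host gene. Both lie beyond the 3' end of Nespas on its strand, Mir298 by 13651 bases and Mir296 by 14111 bases. Gnas, which encodes the stimulatory G protein alpha subunit, runs on the other strand.

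Mir335 lies on the plus strand at chr6:30741299-30741396, in an intron of all 7 Mest transcripts that span it. Mir483 lies on the minus strand at chr7:142654924-142654996, in an intron of all 7 Igf2 transcripts that span it and of the readthrough gene model Gm49394. Mir675 lies on the same strand at chr7:142577064-142577147, 77776 bases from Mir483. Its hairpin overlaps an exon in 3 of the 4 H19 transcripts that span it. Of the 5 hairpins, only that of Mir675 is exonic in this annotation.

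**Figure D1:**
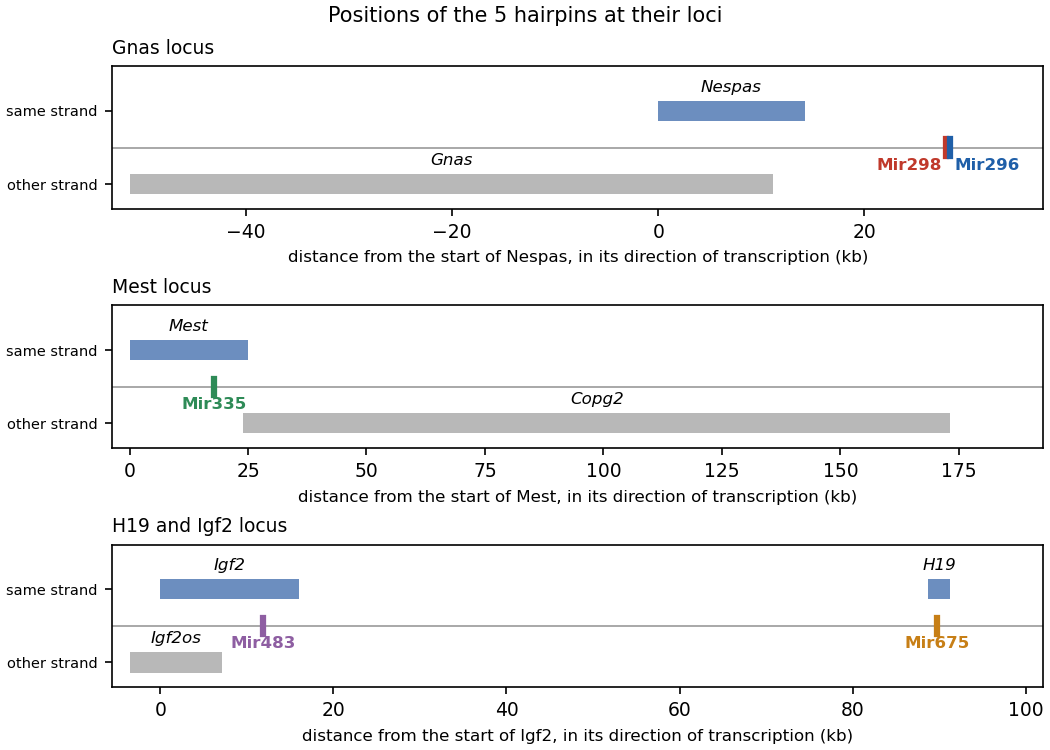
Maps of the 3 loci, with distance in kb from the start of Nespas, Mest or Igf2 in its direction of transcription. Blue bars are genes on the strand of the hairpins, grey bars genes on the other strand, and coloured ticks the hairpins. Mir298 and Mir296 sit past the end of Nespas, Mir335 and Mir483 inside Mest and Igf2, and Mir675 inside H19.

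The libraries held 4815761 (replicate 1) and 3495401 (replicate 2) counts on microRNA genes, and levels are CPM, counts per 1000000 of these. A gene with 0 counts could still have had up to 0.623 and 0.858 CPM in the 2 libraries, where limits and intervals cover counting error only. Reads that fit several places were left out of the counts and numbered 0.968 and 1.15 per counted read. Of the neuronal microRNAs without copies, Mir137 had 5316 and 4111 CPM and Mir132 had 4187 and 9936 CPM. Mir122, the liver microRNA, had 39.5 and 31.5 CPM. Markers of red blood cells summed to 1229 CPM in replicate 1 and 76.4 CPM in replicate 2, and those of choroid plexus and ciliated cells to 2582 and 5333 CPM. In tissue RNA, fewer cells of a type and less RNA per cell cannot be told apart.

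Mir298 was the most abundant of the 5 genes, with 76819 counts in replicate 1 and 101761 in replicate 2. Its levels were 15952 CPM (95% Clopper-Pearson interval 15840 to 16064) and 29113 CPM (28937 to 29290), a mean of 22532 ± 9306 CPM (SD, n = 2). It ranked 13 of all 2202 genes in replicate 1 and 9 in replicate 2. The counts leave out reads that fit several places, and 1084 of the 2202 genes share 20 consecutive bases with another gene. No member does, so ranks may place the members too high. In each library only 3 of the 67 genes of Dlk1-Dio3, the cluster that held 22.7% ± 2.13 of counts (SD, n = 2), lay above Mir298. The gene took 1.60% of all counts on microRNA genes in replicate 1 and 2.91% in replicate 2.

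Mir296, known for a role of its product in endothelial cells and the growth of blood vessels, was next. It had 29336 counts and 6092 CPM in replicate 1, and 10656 counts and 3049 CPM in replicate 2. The mean was 4570 ± 2152 CPM (SD, n = 2), rank 33 in replicate 1 and 58 in replicate 2. Replicate 1 was the higher library, the opposite of Mir298. Mir335, whose product is known as a suppressor of metastasis in breast cancer, had 17123 counts and 3556 CPM in replicate 1 and 7572 counts and 2166 CPM in replicate 2. Its mean was 2861 ± 982 CPM (SD, n = 2), and replicate 1 was again the higher library.

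Mir483 stood about an order of magnitude lower, with 1302 counts (270.4 CPM, interval 255.9 to 285.5) in replicate 1 and 604 counts (172.8 CPM, interval 159.3 to 187.1) in replicate 2. Its mean was 221.6 ± 68.99 CPM (SD, n = 2), rank 163 in replicate 1 and 194 in replicate 2. This is the same direction as Mir296 and Mir335. Mir675, whose release from H19 is known to limit growth of the placenta, had 6 counts in replicate 1 and 2 in replicate 2. Its levels were 1.25 CPM (interval 0.457 to 2.71) and 0.572 CPM (0.0693 to 2.07), where the second is below the level that a count of 0 allows. With 8 counts in all, no difference between the libraries was detectable for it.

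The order Mir298, Mir296, Mir335, Mir483, Mir675 was the same in both libraries. Each step was wide except that from Mir296 to Mir335, whose values overlapped across the libraries (3049 to 6092 against 2166 to 3556 CPM). Inside a library Mir335 had 0.584 counts per count of Mir296 in replicate 1 (interval 0.573 to 0.595) and 0.711 in replicate 2 (0.690 to 0.732). On mean levels Mir298 stood 4.93 times above Mir296, 7.88 times above Mir335 and 101.7 times above Mir483. Within the locus of Igf2 and H19, Mir483 had 217 counts per count of Mir675 in replicate 1 (interval 99.4 to 592) and 302 in replicate 2 (83.2 to 2499). These ratios compare reads of different microRNAs, and whether these were captured equally was not analysed.

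**Figure D2:**
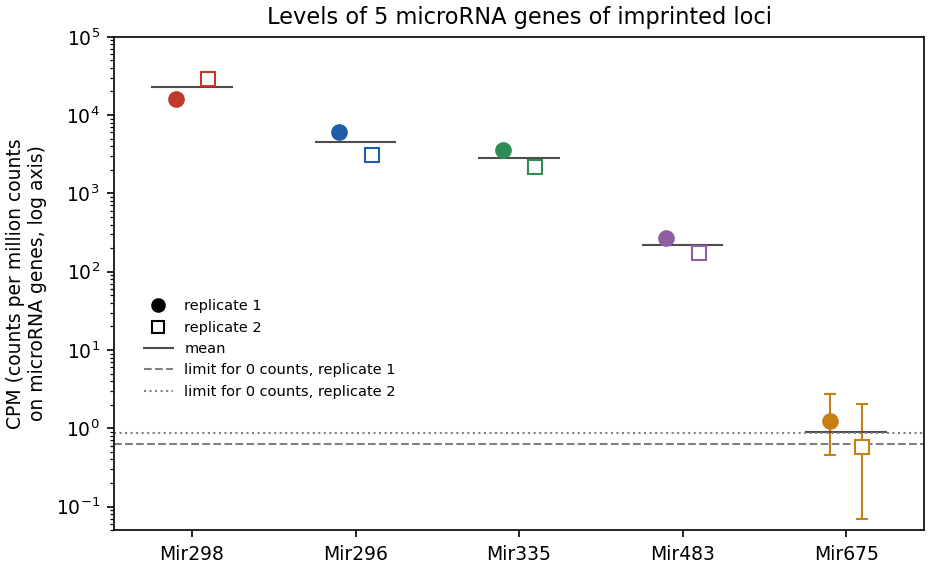
CPM of each gene on a log axis, with filled circles for replicate 1 and open squares for replicate 2. Bars are 95% Clopper-Pearson intervals (smaller than the symbols except for Mir675), short lines are means, and dashed and dotted lines are the levels a count of 0 allows. Mir298 is the only one of the 4 upper genes whose replicate 2 lies above replicate 1, and Mir675 lies at the limit of detection.

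Summed, the 5 genes took 2.59% of counts in replicate 1 (interval 2.57 to 2.60) and 3.45% in replicate 2 (3.43 to 3.47), a mean of 3.02% ± 0.610 (SD, n = 2). Mir298 made up 61.7% of that sum in replicate 1 and 84.4% in replicate 2. Without Mir298 the other 4 genes took 0.992% in replicate 1 and 0.539% in replicate 2. The sum thus followed Mir298, and the other genes went the other way. For comparison, the 119 genes in the Sfmbt2 host, another imprinted source of microRNAs, took 0.271% ± 0.00159 (SD, n = 2), but 116 of them share bases with another gene.

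With 1 group, the only comparison the data allow is between the 2 libraries, and its test compares these libraries, not conditions. The test treats reads as independent molecules, so its p-values cover counting error only and are too small for any spread between samples. Log2 ratios are of CPM with 0.5 counts added, replicate 2 over replicate 1. An exact binomial test, two-sided and with Benjamini-Hochberg adjustment, was run over the 540 genes with at least 10 counts. A gene differed where the adjusted p was below 0.05 and the log2 ratio was 1 or more in either direction, and 0 of the 4 tested members did. Under the same rule 18.7% of all tested genes differed, 11.5% higher in replicate 2 and 7.22% higher in replicate 1. Of the 101 genes called, 61.4% were higher in replicate 2, and that share was 52.1% of 96 with TMM sizes and 45.5% of 101 with DESeq2 factors. All 4 members passed the adjusted p alone, as 55.7% of tested genes did, and all 4 had an unadjusted p below 0.05. Among the 110 tested genes that averaged at least 1000 CPM, 101 passed the adjusted p alone and 12.7% passed both limits. Mir298, Mir296 and Mir335 belong to these 110, so passing the adjusted p does not set them apart. Mir483 lies below that level. What kept the 4 members out was the size of the ratio. Mir675, with 8 counts, was not tested.

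Mir298 had a log2 ratio of 0.87 and Mir296 one of -0.999, which just missed the minimum of 1. With TMM library sizes Mir296 had a log2 ratio of -1.08 and passed, and with DESeq2 size factors it had -1.17 and passed. Under these scalings 1 of the 4 members differed, beside 17.8% (TMM) and 18.7% (DESeq2) of all tested genes. Mir335 had a log2 ratio of -0.71 (adjusted p = 4.06e-297) and Mir483 one of -0.65 (adjusted p = 5.76e-20). The median of the 4 was -0.68, where the median over the 540 tested genes was 0.17. That background median was 0.09 with TMM sizes and 0.0051 with DESeq2 factors, and no member changed direction under either. With DESeq2 factors Mir298 had a log2 ratio of 0.70, Mir335 one of -0.88 and Mir483 one of -0.81.

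Few abundant microRNAs had a higher log2 ratio than Mir298, and few had a lower one than Mir296. Among the 110 genes whose mean was at least 1000 CPM, the median absolute log2 ratio was 0.36 and 96 lay within 2-fold. Counting both directions, 14 of the 110 passed both limits and so differed more than Mir296 in size. Only 11 of the 110 had a higher ratio than Mir298, and only 5 a lower ratio than Mir296. Mir335 had 7 of them below it, Mir296 included. The neighbours of the Gnas locus therefore lay near opposite ends of the abundant genes.

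**Figure D3:**
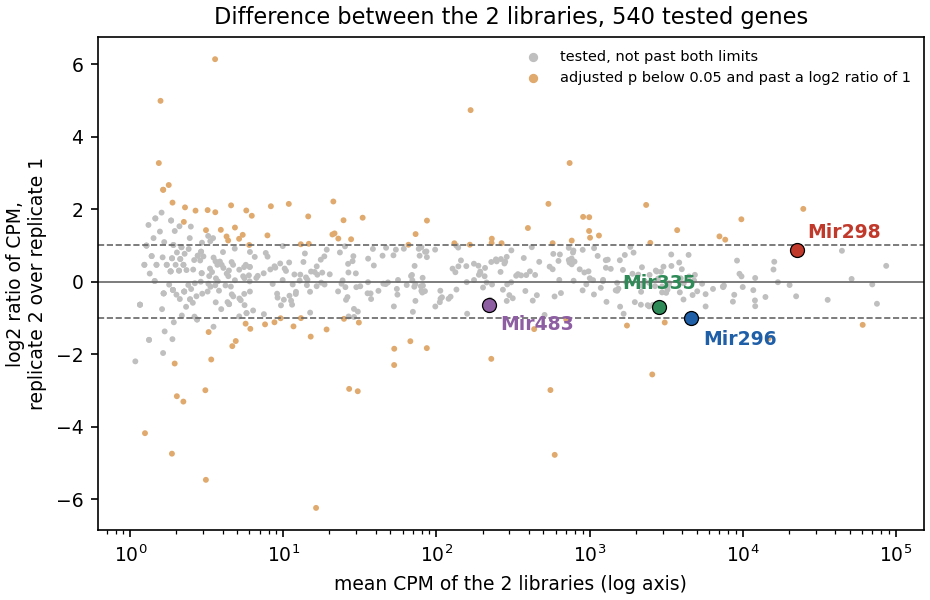
Log2 ratio of CPM, replicate 2 over replicate 1, against mean CPM on a log axis, for the 540 tested genes. Orange points passed both limits and dashed lines mark log2 ratios of 1 and -1. Mir298 lies above 0 at 0.87, while Mir296 at -0.999, Mir335 at -0.71 and Mir483 at -0.65 lie below it.

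The ratio between the neighbours shows, without any scaling, how far they moved apart, though not the direction of either. Mir298 had 2.62 counts per count of Mir296 in replicate 1 (interval 2.58 to 2.65) and 9.55 in replicate 2 (9.36 to 9.74). Their log2 ratios differed by 1.87. Neighbouring microRNA genes on a strand, at most 10000 bases apart and both tested, formed 119 pairs, and the median difference of their log2 ratios was 0.65. The Mir298 and Mir296 pair was 12 in descending order, and 10 of 74 when pairs with a gene that shares bases were left out. Among the 22 pairs with both genes at a mean of 1000 CPM or more it was 4, and the median there was 0.66. The pairs share members in clusters, and this comparison was chosen after the values were seen. Larger differences among those 22 pairs were those of Mir666 and Mir543 (3.15), Mir127 and Mir434 (2.26) and Mir99b and Mirlet7e (2.11). The first pair and the second lie in Dlk1-Dio3, and the third holds members of the miR-99 and let-7 families.

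**Figure D4:**
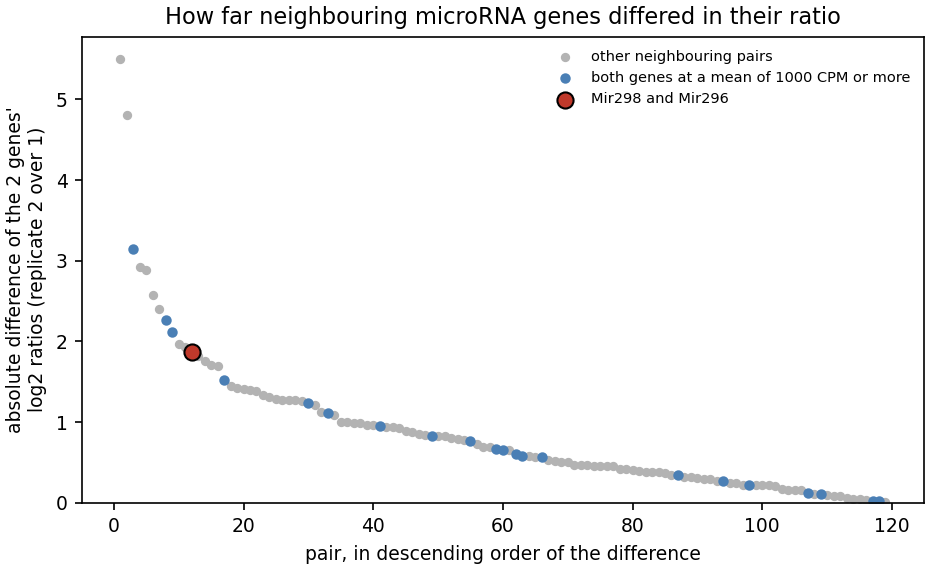
Absolute difference of the log2 ratios of neighbouring microRNA genes, with 119 pairs in descending order. Blue points are pairs with both genes at a mean of 1000 CPM or more, grey points the others. The Mir298 and Mir296 pair, in red, lies at 1.87, above the median of 0.65.

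By contrast, Mir335 and Mir483, from different chromosomes, kept nearly the same proportion. This comparison was not planned in advance, and how often other pairs of genes lay as close was not analysed. Mir335 had 13.2 counts per count of Mir483 in replicate 1 (interval 12.4 to 13.9) and 12.5 in replicate 2 (11.5 to 13.6), and these intervals overlap. Mir296 had 22.5 counts per count of Mir483 in replicate 1 (21.3 to 23.8) and 17.6 in replicate 2 (16.3 to 19.2), which do not. Markers of other cell types moved in several ways between the libraries. The endothelial Mir126a, the only marker in its list, had a log2 ratio of -0.68. The mural cell markers Mir143 and Mir145a had 0.09 and 1.18. Mir206 of striated muscle had -1.65, but it was the only 1 of 5 in its list with counts. The other 4 had 0 counts in both libraries and share bases with another gene. The 2 oligodendrocyte markers had a median of 0.78. The 4 myeloid markers had a median of 0.58, from -0.33 for Mir142 to 2.08 for Mir223, with 2 called higher in replicate 2. The 3 red blood cell markers had a median of -3.02, with 2 called higher in replicate 1, and the 6 tested choroid plexus and ciliated cell markers a median of 1.44, with 3 of 6 called higher in replicate 2. The fibroblast markers of meninges, of which Mir199a-1 had 0 counts, summed to 57.5 and 58.9 CPM. Of that, Mir214 alone had 55.2 and 56.9 CPM, and the other 3 markers share bases with another gene. The part of these cells in the members' differences was not tested.

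Each member was compared with the genes nearest to it in level, by Euclidean distance of log2(CPM + 1) over the 2 libraries. Nearest to Mir298 were Mirlet7e (13090 and 19129 CPM, distance 0.67) and Mirlet7d (20959 and 19618 CPM, distance 0.69). For Mir296 they were Mir181d (4808 and 3413 CPM, distance 0.38) and Mir137 (distance 0.47). For Mir335 they were Mir485, a gene of Dlk1-Dio3, at 3160 and 2027 CPM (distance 0.20) and Mir423 (distance 0.30). For Mir483 they were Mir331 at 263.5 and 185.7 CPM (distance 0.11) and Mir495 (distance 0.37). Mir675 had the same counts as Mir7062 and Mir6939, 6 in replicate 1 and 2 in replicate 2. Only 2 libraries enter these distances, so they describe closeness in level and no more.

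Other microRNA genes within 50000 bases of known imprinted genes mostly had few counts or none. The list of such genes, with 65 of 67 names found in the annotation, gave 9 microRNA genes beside the members. Of these, 6 had 0 counts in both libraries, among them Mir489 and Mir653 in Calcr, the calcitonin receptor gene. Mir3099, in the paternally expressed Usp29 of the Peg3 domain, was the exception. It had 6151 counts and 1277 CPM in replicate 1 and 7425 counts and 2124 CPM in replicate 2, a mean of 1701 ± 599 CPM (SD, n = 2), between Mir335 and Mir483. Its log2 ratio of 0.73 had the sign of Mir298, and it did not reach the minimum of 1. Mir147 lies in another gene, AA467197, and was listed for its distance to Gatm. It had 6 and 18 counts (log2 ratio 1.97, adjusted p = 0.00307 by the exact binomial test). Of the 3 tested genes of this list, Mir147 was the 1 that differed. Gm23134, in Blcap, had 6 counts in each library and shares bases with another gene.

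The hairpins differed in composition but were all more stable, by predicted folding, than the median microRNA gene. GC content was 63.3% for Mir296, 63.1% for Mir675, 58.9% for Mir483, 53.7% for Mir298 and 42.9% for Mir335, around a median of 50.8% over the 2202 genes. Predicted minimum free energy was -0.667 kcal/mol per base for Mir675, -0.547 for Mir296, -0.521 for Mir298, -0.463 for Mir483 and -0.452 for Mir335. The median was -0.369 over all genes and -0.430 over the 540 tested genes. Mir675, the least counted member, thus had the most stable predicted hairpin, and only 1.27% of all genes had a lower energy per base. The mature products showed the same contrast of composition, from 30.4% GC in miR-335-5p to 68.2% in miR-296-3p. Across the 540 tested genes, which share the libraries, Pearson's r between hairpin GC content and the log2 ratio was -0.09 and Spearman's rho was -0.05.

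**Figure D5:**
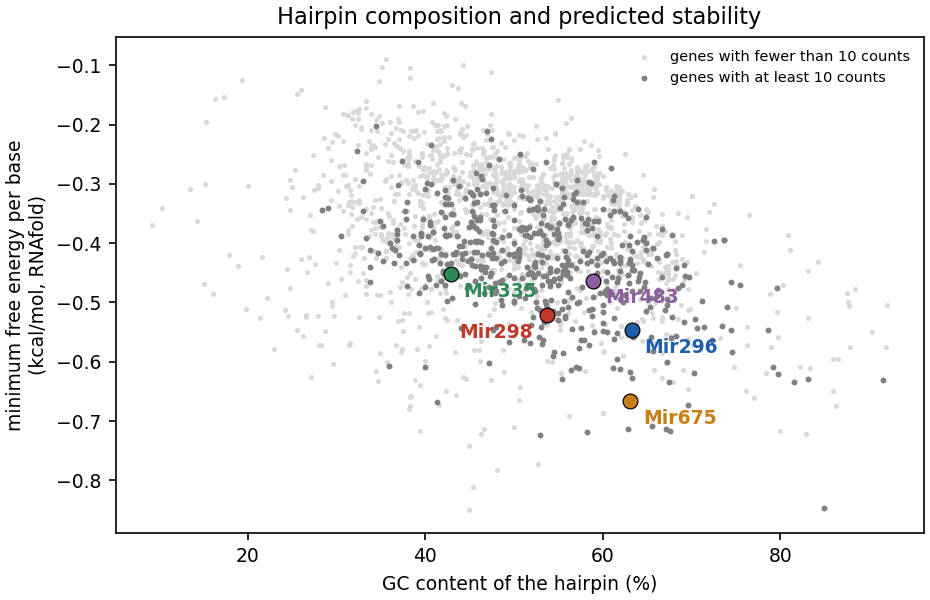
Predicted minimum free energy per base in kcal/mol against GC content in percent for the hairpins of all 2202 genes, dark grey where a gene had at least 10 counts. Lower values are more stable. Mir675 lies lowest of the 5 at -0.667, and Mir335 lies farthest left at 42.9% GC.

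The direction of the reads was uniform. Each member had 0 counts on the opposite strand in both libraries, so its sense and unstranded counts were equal. With no count on the other strand at any of the 5 hairpins, the counted reads of Mir298 and Mir296 aligned to the strand of Nespas. Those of Mir335 aligned to the strand of Mest. Gnas and Copg2, whose gene overlaps the end of Mest, run on the other strand but do not reach these hairpins. Gnas lies 16734 bases from Mir298, and Copg2 lies 6157 bases from Mir335. The strand therefore does not show which transcript the reads came from.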

How the data were processed

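MicroRNA libraries of total RNA, with fragments below 30 nt per the labels, were made from 2 replicates of 1 group. The authors deposited raw read counts per microRNA gene for each library, on mm10 with GENCODE M21, per the notes deposited with the counts. Which aligner and counter made them is not given in the sources used here. Of the 2 stranded columns, that with the larger gene total was used as sense. Lines of totals for reads off genes were left out: reads fitting several places were 37.7% (replicate 1) and 39.8% (replicate 2) of all reads, unmapped reads 17.7% and 19.5%, and reads outside genes 5.74% and 6.09%.

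All 2202 identifiers matched GENCODE M21, and seeds came from RefSeq. CPM was computed from counts on genes, and a count of 0 was limited at 3 counts. The comparison of libraries was an exact binomial test, with 10 counts as the minimum, and was tested on simulated data. Named genes were the members, the 2 nearest genes to each in level, listed genes with at least 10 counts, and genes sharing a seed. Genes sharing bases 2 to 7, the larger neighbouring pairs, and listed genes with fewer counts were added after their values were seen. The members and lists were chosen with earlier results of these data known. No columns were left unmapped. Alternatives covered scaling, filters, the ratio minimum, strand, denominator and each replicate left out. Python 3.11.15, SciPy 1.17.1, ViennaRNA 2.7.2, edgeR 4.0.16 and DESeq2 1.42.0 were used, the last 2 for scaling only.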

Additional observations from a re-analysis of the deposited data

How the results depend on the processing

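Over the alternatives run, no member's log2 ratio changed direction, and TMM sizes and DESeq2 factors brought Mir296 past the limits. The count of members differing was 0, and was 1 with TMM sizes, 1 with DESeq2 factors and 4 with no minimum ratio. The genes differing numbered 101, then 67 with at least 50 counts and 301 with no minimum ratio. Of the genes that differed in each setting, 61.4% of 101 were higher in replicate 2, 52.1% of 96 with TMM sizes and 45.5% of 101 with DESeq2 factors, so the direction of the excess depended on the scaling. With reads that fit several places in the denominator, the summed share was 1.46% in place of 3.02%, since the denominator is then larger, and the levels of all 5 members were lower with it, Mir675 at 0.450 in place of 0.909 CPM. Leaving out each replicate gave summed shares of 2.59% to 3.45%. The counts of Mir298 per count of Mir296 were 6.08 on average, 9.55 without replicate 1 and 2.62 without replicate 2, so this mean depends on each library. No paired analysis was possible because the labels give 1 group. Depth limits Mir675 alone among the members.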
